A study of Mus musculus with 4 samples.

Results

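Genes by which cells take up, carry, store and release fatty acids were followed in mouse bone marrow-derived macrophages (BMDMs), primary cells grown out of marrow with the growth factor M-CSF (50 ng/mL). The set held 9 genes chosen by symbol, Lpl, Cd36, Fabp4, Fabp5, Pparg, Dgat1, Dgat2, Plin2 and Pnpla2, and all 9 were found among the 14432 genes of the single-cell count table. Marrow came from mice aged 8 to 12 weeks, and the 4 groups were Trpv4-null cells given bacterial lipopolysaccharide (LPS, 100 ng/mL for 24 h), Trpv4-null cells left untreated, C57BL/6J wild-type cells given LPS, and C57BL/6J wild-type cells left untreated. Each group was 1 library. The study's design text speaks of 3 mice per genotype, but the cells carry no mouse label, so no difference below has a replicate check and no test was made. Intervals are 95% intervals for counting error only.

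Lipoprotein lipase, the product of Lpl, frees fatty acids from circulating lipoproteins, CD36 takes them up at the cell surface, and the FABP proteins carry them inside the cell. The DGAT enzymes add the last acyl chain of triglyceride, perilipin 2 (Plin2) coats the droplet that stores it, and the lipase ATGL (Pnpla2) begins its breakdown. PPARγ (Pparg) is a fatty acid-sensing nuclear receptor that binds DNA with RXR, and Lpl, Cd36, Fabp4 and Plin2 are among its known target genes.

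The libraries held 5485 to 8288 cells and 43731003 to 144090985 unique molecular identifiers (UMIs, which count captured mRNA molecules). Median UMIs per cell were 16041 and 16674 in the LPS libraries labelled Trpv4-null and wild type, against 7893 and 5661 in the untreated ones. The median mitochondrial share was 3.19% and 3.05% after LPS, against 6.13% and 6.06% untreated. Among the 27366 cells, 74 barcodes were found in more than 1 library. Trpv4, the targeted gene, had 1049 UMIs (9.62 CPM, counts per 1000000 UMIs) after LPS and 404 UMIs (8.60 CPM) untreated in the libraries labelled Trpv4-null, and 298 UMIs (2.07 CPM) after LPS and 255 UMIs (5.83 CPM) untreated in wild type. Its counts therefore did not follow the genotype label, and the deleted part of the gene is not given in the sources used here. Genotypes are given below as labels. All 10 macrophage markers reached 20 CPM. The table held 1 of 8 adipocyte markers, Lipe, at 18.4 to 23.7 CPM. It held 4 of 7 endothelial markers, none of them at 20 CPM in a library, with Kdr the highest (17.7 CPM), and 2 of 6 stromal markers, whose sum was at most 2.04 CPM. The 5 neutrophil markers in the table summed to 41.6 CPM after LPS and 328 CPM untreated under the Trpv4-null label, and to 52.4 CPM after LPS and 182 CPM untreated in wild type, and the part of such cells in the results below was not tested.

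After LPS, Lpl, Fabp4 and Fabp5 were higher and Plin2, Pparg and Pnpla2 lower than in untreated cells, under both genotype labels. Genes were compared where the higher library had at least 20 CPM and 30 UMIs, and 2-fold serves as a mark of size, not as a test. In the libraries labelled Trpv4-null, 2 of 6 members compared were at least 2-fold higher, Lpl and Fabp4, where 7.3% of all 6340 genes compared were. Pnpla2 alone was at least 2-fold lower there, where 21.3% of all genes were. In wild type, 0 of 7 members compared were at least 2-fold higher, where 6.9% of all 6332 genes were. Plin2, Pparg and Pnpla2 were at least 2-fold lower, where 17.7% were. The members' median log2 ratio was 0.66 under the Trpv4-null label and -0.46 in wild type, against -0.42 and -0.39 over all genes compared. The members' medians cover different sets, because Pparg (log2 -3.39 in wild type) was compared in wild type only. The gap between them is therefore not one of the same genes.

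**Figure D1:**
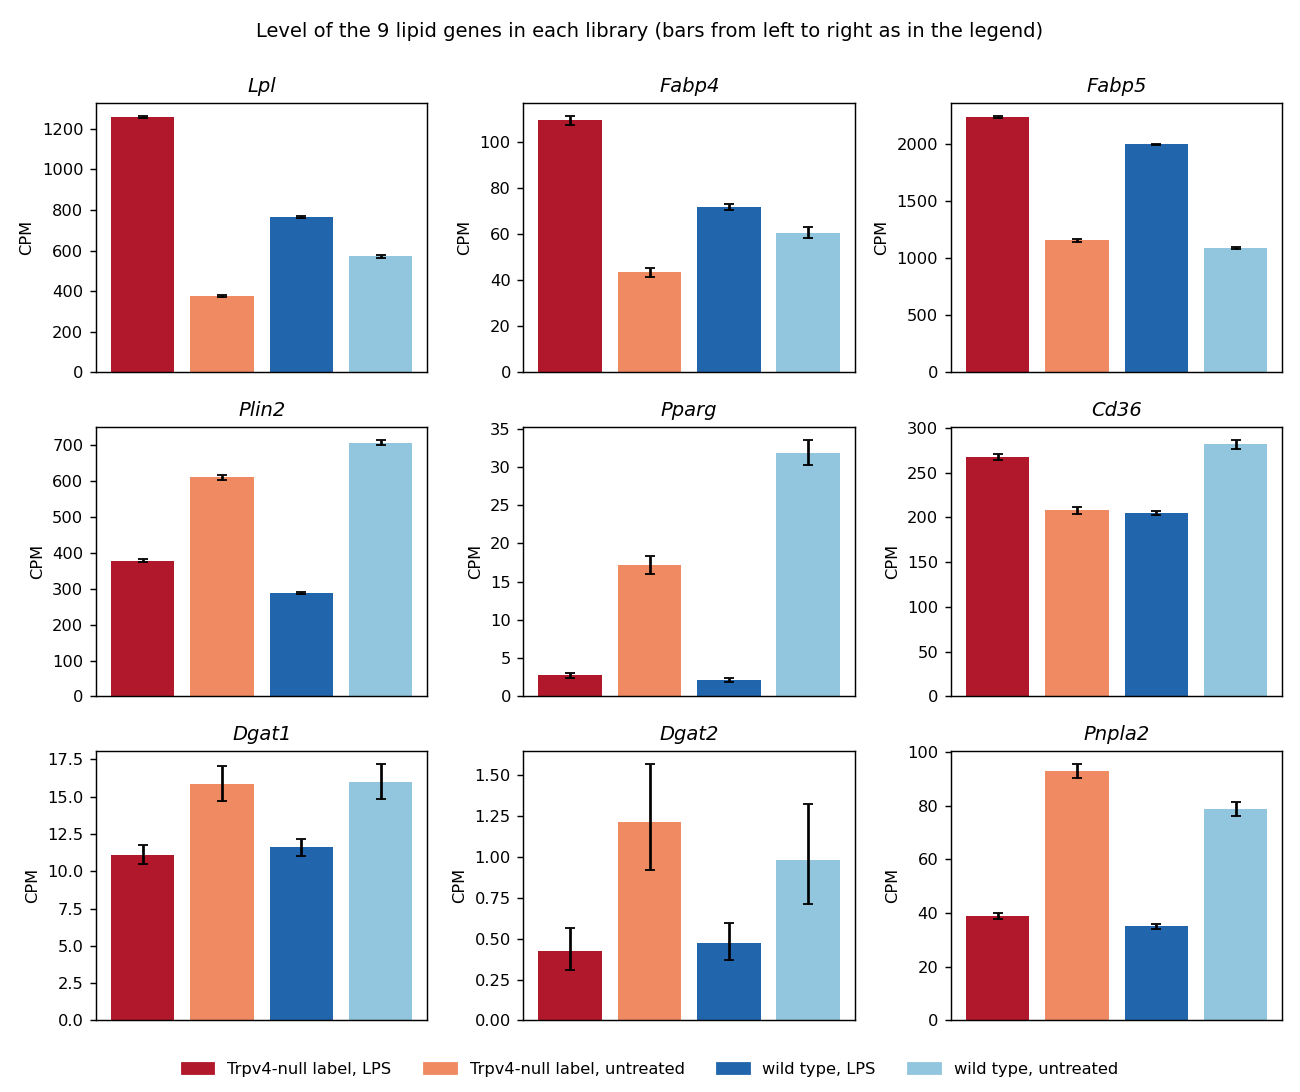
Level of each of the 9 genes in CPM (each panel has its own axis, from 0) in the 4 libraries, with bars from left to right for the Trpv4-null label with LPS, the Trpv4-null label untreated, wild type with LPS and wild type untreated. Error bars are 95% Poisson intervals. Lpl, Fabp4 and Fabp5 are highest in the LPS library labelled Trpv4-null, and Plin2 and Pparg in untreated wild type.

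The scaling bears on these counts, because the median gene lay at -0.42 and -0.39 by library totals and at 0.18 and 0.13 with median-of-ratios size factors (Trpv4-null label and wild type). With those factors 3 members, Lpl, Fabp4 and Fabp5, were at least 2-fold higher under the Trpv4-null label and 0 lower, and in wild type Fabp5 was higher and Pparg lower. Of all genes past 2-fold after LPS, 25.6% (Trpv4-null label) and 28.0% (wild type) were higher by totals, and 69.5% and 68.8% with these factors. Of the members compared, Cd36 in wild type was the one whose direction turned with these factors.

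The lipase gene Lpl (chromosome 8, 68880491 to 68907448, plus strand, GRCm38) stood at 1257 CPM after LPS and 375 CPM untreated in the libraries labelled Trpv4-null, and at 766 CPM after LPS and 573 CPM untreated in wild type. No intervals overlapped, and the untreated library labelled Trpv4-null was the lowest of the 4. LPS went with a 3.35-fold higher level (3.30 to 3.40) under the Trpv4-null label and a 1.34-fold higher one (1.32 to 1.36) in wild type. The cells differed in their Lpl counts over a wide range, with up to 450 UMIs in a cell of the LPS library labelled Trpv4-null and up to 182, 316 and 162 UMIs in the untreated library of that label, in wild type after LPS and in untreated wild type. The 10% of cells with the most Lpl held 43.5% of its UMIs after LPS and 75.6% untreated under the Trpv4-null label, and 49.2% after LPS and 66.4% untreated in wild type. Lpl UMIs were thus less concentrated in a few cells after LPS, in libraries whose cells were also deeper.

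At equal depth the share of cells with Lpl was also higher after LPS. Each cell was thinned to 3000 UMIs, and 93, 209, 122 and 666 shallower cells were left out (Trpv4-null label with LPS and untreated, wild type with LPS and untreated). An Lpl UMI was then found in 77.1% of cells (76.1 to 78.1) after LPS and 29.4% (28.2 to 30.6) untreated under the Trpv4-null label. In wild type it was found in 63.2% (62.1 to 64.2) after LPS and 37.7% (36.5 to 38.9) untreated. Without thinning the shares were 95.2% and 43.0% under the Trpv4-null label and 89.7% and 46.6% in wild type (after LPS and untreated). At least 5 Lpl UMIs were found in 26.5% of thinned cells after LPS and 6.05% untreated under the Trpv4-null label, and in 14.2% after LPS and 11.2% untreated in wild type. None of the authors' clusters was named for a cell type that should lack these genes, and free RNA in the droplets was not measured.

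**Figure D2:**
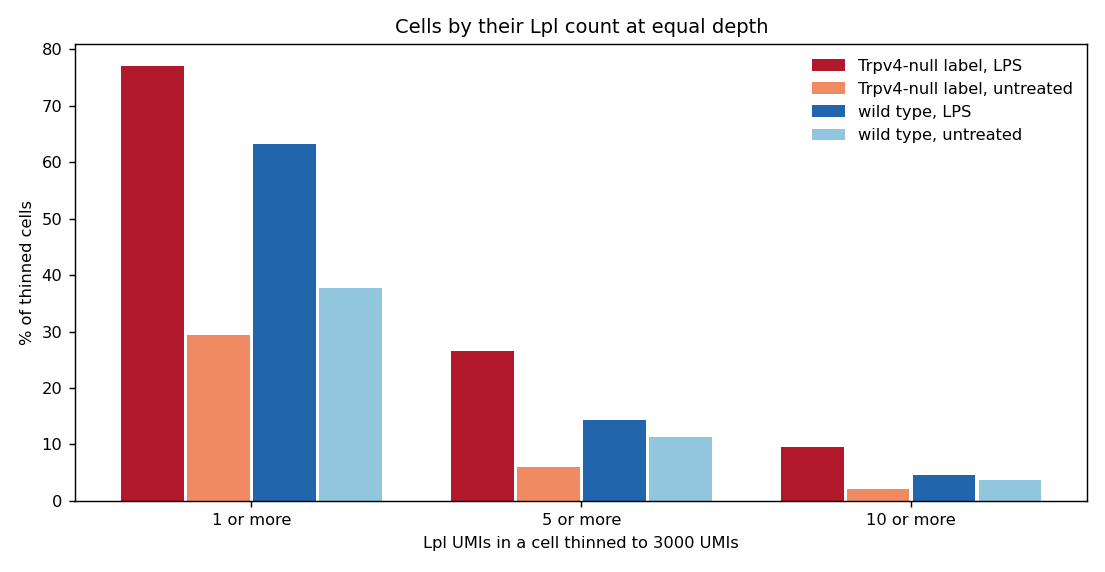
Percent of cells, each thinned to 3000 UMIs, with at least 1, 5 or 10 Lpl UMIs, with bars for the 4 libraries. The LPS library labelled Trpv4-null is highest and the untreated library of that label lowest at each count, from 77.1% and 29.4% at 1 UMI to 9.52% and 2.12% at 10 UMIs.

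Cd36, the fatty acid and oxidized lipoprotein receptor (chromosome 5, 17781690 to 17888801, minus strand), stood at 268 CPM after LPS and 208 CPM untreated in the libraries labelled Trpv4-null, and at 205 CPM after LPS and 282 CPM untreated in wild type. The intervals of the 2 middle libraries, untreated under the Trpv4-null label (204 to 212) and wild type after LPS (203 to 207), overlapped. By library totals the LPS level was 1.29-fold the untreated one (1.26 to 1.32) under the Trpv4-null label and 0.727-fold (0.711 to 0.742) in wild type. With median-of-ratios size factors the log2 ratios were 0.97 under the Trpv4-null label and 0.07 in wild type, so the wild-type direction turned with the scaling. In thinned cells a Cd36 UMI was found in 49.4% after LPS and 32.2% untreated under the Trpv4-null label, and in 40.1% after LPS and 39.8% untreated in wild type. Unthinned, these shares were 85.6% after LPS and 53.3% untreated under the Trpv4-null label, and 79.1% after LPS and 55.2% untreated in wild type.

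Fabp4, which encodes the fatty acid carrier aP2 of adipocytes and macrophages (chromosome 3, 10204088 to 10208576, minus strand), stood at 109 CPM after LPS and 43.4 CPM untreated in the libraries labelled Trpv4-null. In wild type it stood at 71.7 CPM after LPS and 60.6 CPM untreated. The order of the libraries was that of Lpl, with no overlap of intervals. The ratio for LPS was 2.52 (2.40 to 2.64) under the Trpv4-null label and 1.18 (1.13 to 1.24) in wild type. In a library 76.9% to 94.1% of its UMIs lay in the top 10% of cells, and a UMI was found in 6.77% to 15.5% of thinned cells (12.2% to 31.9% unthinned). At so few UMIs per cell, these shares do not show how many cells express Fabp4.

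Fabp5, the epidermal-type carrier that macrophages also make (chromosome 3, 10012548 to 10016607, plus strand), stood at 2240.2 CPM after LPS and 1156 CPM untreated in the libraries labelled Trpv4-null. Its wild-type levels were 1998 CPM after LPS and 1091 CPM untreated. Both LPS libraries lay above both untreated ones, with ratios of 1.94 (1.92 to 1.96) under the Trpv4-null label and 1.83 (1.81 to 1.85) in wild type. A processed pseudogene of Fabp5 is annotated in the mouse genome, and how the authors' counting treated reads shared with it is not given in the sources used here.

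Pparg, the nuclear receptor (chromosome 6, 115360951 to 115490399, plus strand), stood at 2.74 CPM (299 UMIs) after LPS and 17.1 CPM (806 UMIs) untreated in the libraries labelled Trpv4-null, and at 2.12 CPM (306 UMIs) after LPS and 31.8 CPM (1392 UMIs) untreated in wild type. Both LPS libraries were low, with intervals of 2.44 to 3.07 CPM under the Trpv4-null label and 1.89 to 2.38 CPM in wild type that did not overlap. The ratio for LPS was 0.0667 (0.0588 to 0.0756) in wild type, the lowest of the members there. Under the Trpv4-null label it was 0.1599 (0.140 to 0.183), a value given outside the comparison because neither library reached 20 CPM. An antisense gene model overlaps Pparg, and strand use in the counting is not stated.

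Of the droplet genes, Plin2 (chromosome 4, 86648386 to 86670060, minus strand) stood at 379 CPM after LPS and 611 CPM untreated in the libraries labelled Trpv4-null, and at 289 CPM after LPS and 708 CPM untreated in wild type. The LPS libraries were below both untreated libraries, with ratios of 0.620 (0.611 to 0.630) under the Trpv4-null label and 0.408 (0.402 to 0.414) in wild type. Under the Trpv4-null label the log2 ratio of -0.69 came to -0.08 with median-of-ratios size factors, close to 0. Pnpla2 (chromosome 7, 141455198 to 141460743, plus strand), the triglyceride lipase, stood at 38.8 CPM after LPS and 92.8 CPM untreated under the Trpv4-null label, and at 35.1 CPM after LPS and 78.8 CPM untreated in wild type. Its ratios were 0.418 (0.401 to 0.436) under the Trpv4-null label and 0.445 (0.426 to 0.465) in wild type.

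The genes of the triglyceride synthases had few UMIs. Dgat1 (chromosome 15, 76502015 to 76511953, minus strand) stood at 11.1 CPM after LPS and 15.9 CPM untreated under the Trpv4-null label, and at 11.6 CPM after LPS and 16.0 CPM untreated in wild type. Dgat2 (chromosome 7, 99153658 to 99182719, minus strand) had 46 UMIs after LPS and 57 untreated under the Trpv4-null label, and 68 UMIs after LPS and 43 untreated in wild type. Neither passed the minimum for a comparison. The LPS ratio of Dgat1 was 0.701 (0.640 to 0.769) under the Trpv4-null label and 0.726 (0.664 to 0.794) in wild type by library totals, while its log2 ratios turned to 0.09 under the Trpv4-null label and 0.06 in wild type with median-of-ratios size factors.

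**Figure D3:**
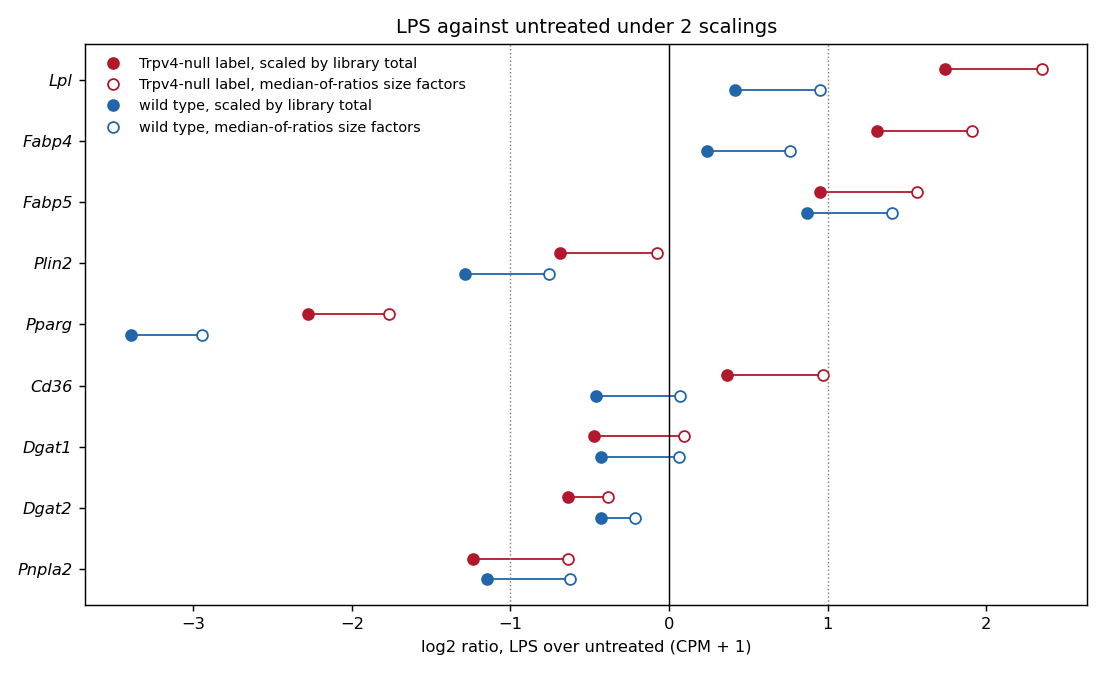
Log2 ratio of LPS over untreated (CPM plus 1) for the 9 genes under the Trpv4-null label (red) and in wild type (blue), scaled by library totals (filled) and by median-of-ratios size factors (open); dotted lines mark 2-fold. The size factors move every point to the right, and Cd36 in wild type and Dgat1 under both labels cross 0.

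Promoter sequences are shown for Plin2, Cd36, Pparg and Pnpla2, the 4 members for which windows were available. Plin2 and Cd36 are known PPARγ targets, and Plin2, Pparg and Pnpla2 were lower after LPS under each scaling. The windows come from RefSeq on GRCm38.p6, 250 bases before an annotated start, read along the gene's strand, at chr4:86670060-86670309 (Plin2, minus), chr5:17835897-17836146 (Cd36, minus), chr6:115360894-115361143 (Pparg, plus, the first of 3 windows) and chr7:141454938-141455187 (Pnpla2, plus). Capitals mark matches on either strand to AGGTCA, the half-site of nuclear receptors, or to the loose NF-kB motif GGGA and CC with any 4 bases between them.
Plin2: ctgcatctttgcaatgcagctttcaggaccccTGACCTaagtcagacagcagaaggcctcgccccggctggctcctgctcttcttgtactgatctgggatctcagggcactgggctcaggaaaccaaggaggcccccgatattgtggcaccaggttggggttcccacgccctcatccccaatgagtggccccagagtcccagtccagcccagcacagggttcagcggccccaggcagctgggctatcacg
Cd36: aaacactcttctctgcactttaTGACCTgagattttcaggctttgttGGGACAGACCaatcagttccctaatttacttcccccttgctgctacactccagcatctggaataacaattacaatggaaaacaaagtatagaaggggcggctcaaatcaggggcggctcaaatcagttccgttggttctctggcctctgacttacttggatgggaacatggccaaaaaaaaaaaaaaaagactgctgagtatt
Pparg: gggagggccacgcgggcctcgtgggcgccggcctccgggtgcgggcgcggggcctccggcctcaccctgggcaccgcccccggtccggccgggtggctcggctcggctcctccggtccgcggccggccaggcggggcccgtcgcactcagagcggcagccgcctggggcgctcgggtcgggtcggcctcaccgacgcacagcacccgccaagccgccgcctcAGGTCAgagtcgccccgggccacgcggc
Pnpla2: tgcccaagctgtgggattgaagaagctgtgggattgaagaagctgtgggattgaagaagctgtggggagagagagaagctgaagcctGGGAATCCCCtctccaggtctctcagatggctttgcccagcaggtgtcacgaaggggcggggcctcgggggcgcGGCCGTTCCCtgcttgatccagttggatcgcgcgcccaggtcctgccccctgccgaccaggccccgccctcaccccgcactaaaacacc
Positions are those of the base of a match farthest upstream on the printed strand. AGGTCA was matched at -218 from the start of Plin2 and -228 of Cd36, both times as its reverse complement, and at -28 of Pparg, and 16.3% of all 32851 windows of 300 bases held it. The NF-kB motif was found at -203 of Cd36 and at -163 and -89 of Pnpla2, against 20.7% of all windows. The direct repeat AGGTCANAGGTCA, on which PPARγ and RXR are known to bind, was in 0 of these windows and in 0.0396% of all, and TATAAA, which 13.6% of all windows held, was in none of these 4. Of the other Pparg windows, not printed, the next held AGGTCA at -9, TATAAA at -29 and the NF-kB motif at -79 and -48, and the third held none of the motifs. A match describes the letters only.

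By the share of all genes past 2-fold, the genotype labels differed less than the treatments. Not every member followed this. By library totals, Lpl and Fabp4 differed more between the labels than between the wild-type treatments, and the other members compared did not. With median-of-ratios size factors Lpl and Fabp4 no longer did, at log2 0.95 and 0.77 between the wild-type treatments. Cd36 then did, at 0.07 between the wild-type treatments, and at -0.44 (untreated) and 0.46 (after LPS) between the labels. Which members were exceptions thus depended on the scaling. Untreated, 0 of 7 members compared were at least 2-fold higher or lower in the library labelled Trpv4-null, where 0.146% of all 6156 genes were higher and 0.146% lower. After LPS it was 0 of 6, where 0.134% of 5236 genes were higher and 0.0573% lower. Untreated, Lpl (ratio 0.655, 0.643 to 0.668), Pparg (0.539, 0.493 to 0.588), Fabp4 (0.718, 0.677 to 0.760), Cd36 (0.738, 0.718 to 0.758) and Plin2 (0.863, 0.849 to 0.877) were lower under the Trpv4-null label. Pnpla2 (1.18) and Fabp5 (1.06) were slightly higher. The members' median log2 ratio was -0.44, against -0.02 over all genes.

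After LPS all 6 members compared were higher in the library labelled Trpv4-null, where 1956 of all 5236 genes compared were. Pparg, compared untreated, was below the minimum here. Lpl led with a ratio of 1.64 (1.63 to 1.65), followed by Fabp4 at 1.52 (1.48 to 1.57), Plin2 at 1.31 (1.29 to 1.33), Cd36 at 1.31 (1.29 to 1.33), Fabp5 at 1.12 (1.12 to 1.13) and Pnpla2 at 1.11 (1.06 to 1.15). Their median log2 ratio was 0.39, against -0.04 over all genes. The intervals of Dgat1 held 1 in both treatments (0.959, 0.889 to 1.03, after LPS and 0.992, 0.893 to 1.10, untreated), as did those of Dgat2 (0.894, 0.601 to 1.32, and 1.23, 0.816 to 1.88). At 46 to 68 UMIs after LPS and 43 to 57 untreated, a difference of Dgat2 within these bounds was not detectable.

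Set side by side, the LPS log2 ratio was higher under the Trpv4-null label than in wild type for 6 of the 7 members compared. The members' median difference was 0.82, against -0.04 over all 6471 genes. For this difference a gene needed 20 CPM and 30 UMIs in the highest of the 4 libraries, so that Pparg, at 31.8 CPM in untreated wild type, was among them. The difference, Trpv4-null label minus wild type, was 1.32 for Lpl (1.74 under the Trpv4-null label and 0.42 in wild type), 1.12 for Pparg (-2.28 under that label and -3.39 in wild type) and 1.07 for Fabp4 (1.31 under that label and 0.24 in wild type). These 3 members were at 1 or more, where 0.541% of all 6471 genes were, and 0 were at -1 or below, where 0.0927% were. Pparg reached 20 CPM in untreated wild type alone, and that library's level also lowers its wild-type LPS ratio. Its place among the 3 is therefore a description only. Cd36 was at 0.82 (0.36 under the Trpv4-null label and -0.46 in wild type), Plin2 at 0.60 (-0.69 under that label and -1.29 in wild type), Fabp5 at 0.08 and Pnpla2 at -0.09. In all, 19 genes had a higher difference than Lpl, and 28, 30, 49 and 99 had a higher one than Pparg, Fabp4, Cd36 and Plin2. With cells thinned to 3000 UMIs, 2 members were at 1 or more. The difference has no replicate check and was not tested. It also rests on the genotype label, against which the Trpv4 counts went.

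The cells had been grouped by the authors into 9 clusters, 8 of them with at least 100 cells in each library. The cluster named High_Lpl_Fabp4+ carries the names of 2 members and was made from these cells, so its levels are a description. It held 929 and 780 cells in the LPS and untreated libraries labelled Trpv4-null, and 1086 and 1101 in those of wild type. Lpl stood there at 2232 CPM after LPS and 1253 CPM untreated under the Trpv4-null label, and at 1495 CPM after LPS and 1686 CPM untreated in wild type. Fabp4 stood at 355 and 166 CPM under the Trpv4-null label and at 237 and 202 CPM in wild type (after LPS and untreated). Fabp4, Fabp5 and Cd36 were higher in this cluster than in any other of the 8 in all 4 libraries. High_Btg1, the cluster outside the 8, had more Fabp4 after LPS. It stood there at 400 CPM (23 cells) under the Trpv4-null label and 285 CPM (36 cells) in wild type. Untreated, High_Btg1 held 3 and 5 cells.

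Lpl was not restricted to it. The cluster held 25.0% of the library's Lpl UMIs after LPS and 53.7% untreated under the Trpv4-null label, and 26.4% after LPS and 54.3% untreated in wild type, beside 13.5% to 18.4% of all UMIs. In the cluster Cd74+, named for the invariant chain of MHC class II, Lpl stood at 2600.4 CPM after LPS and 508 CPM untreated under the Trpv4-null label, and at 1378 CPM after LPS and 1030.2 CPM untreated in wild type. That was the highest level of the 8 clusters in the LPS library labelled Trpv4-null and the next highest in the other 3. The lowest Lpl was in High_Apoe in every library, at 634 and 93.1 CPM under the Trpv4-null label and 353 and 168 CPM in wild type (after LPS and untreated). Highest over lowest cluster came to 4.10 after LPS and 13.5 untreated under the Trpv4-null label and to 4.24 after LPS and 10.1 untreated in wild type, so the clusters lay closer together after LPS.

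**Figure D4:**
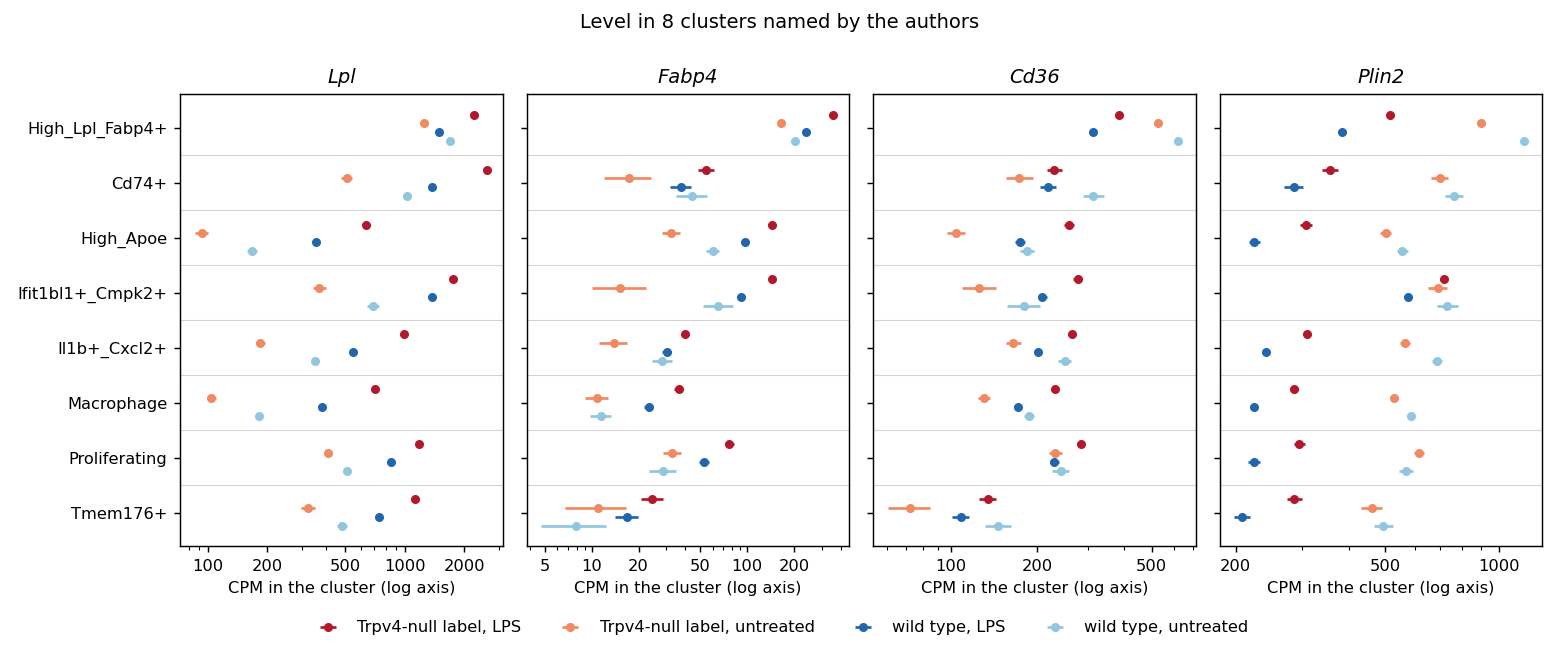
CPM of Lpl, Fabp4, Cd36 and Plin2 (log axes, 1 per gene) in the 8 clusters with at least 100 cells per library, with a point per library and 95% Poisson intervals. Lpl in High_Lpl_Fabp4+ lies between 1253 and 2232 CPM, and High_Apoe is the lowest cluster for Lpl in each library.

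Of the other members, Fabp4 ranged most between clusters. In thinned cells of High_Lpl_Fabp4+ a Fabp4 UMI was found in 38.9% after LPS and 24.6% untreated under the Trpv4-null label, and in 31.6% after LPS and 25.0% untreated in wild type. In Tmem176+ these shares were 3.86% after LPS and 1.95% untreated under the Trpv4-null label, and 3.49% after LPS and 1.58% untreated in wild type. Cd36 was also lowest in Tmem176+, at 134 and 71.8 CPM under the Trpv4-null label and 108 and 146 CPM in wild type (after LPS and untreated). Among the 8 clusters, Plin2 was highest after LPS in Ifit1bl1+_Cmpk2+, a cluster named for interferon-stimulated genes. It stood there at 714 CPM under the Trpv4-null label and 574 CPM in wild type. In the untreated libraries High_Lpl_Fabp4+ led the 8 (899 CPM under the Trpv4-null label and 1173 CPM in wild type). The small cluster High_Btg1 had more Plin2 after LPS, at 836 CPM under the Trpv4-null label and 755 CPM in wild type. Untreated under the Trpv4-null label it also had more, on 61 UMIs. Pnpla2 and Dgat1 differed least, by at most 1.85-fold and 1.93-fold between clusters of a library.

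Ratios within clusters were scaled by totals and were not recomputed with size factors. Those factors moved the library-wide log2 ratio of Lpl in wild type from 0.42 to 0.95. Pparg and Pnpla2 were lower after LPS in all 8 clusters under both labels. Plin2 was lower in all 8 in wild type and in 7 of 8 under the Trpv4-null label, where it was at 0.05 (log2) in Ifit1bl1+_Cmpk2+. By library totals Dgat1 was lower in all 8 clusters under the Trpv4-null label and in 7 of 8 in wild type, where it was at 0.15 in Cd74+. Dgat2 was lower in 6 of 8 under both labels. Neither gene had passed the minimum for a comparison, and Dgat2 had 1 to 21 UMIs per cluster and library. The Dgat1 interval held 1 in several clusters, such as Il1b+_Cxcl2+ under the Trpv4-null label (ratio 0.969, 0.753 to 1.26). These counts therefore do not show a consistent decrease. Fabp5 was higher in all 8 under both labels. Lpl was higher after LPS in all 8 clusters under the Trpv4-null label (log2 0.83 to 2.75) and in 7 of 8 in wild type (up to 1.07). By totals, High_Lpl_Fabp4+ was the cluster where Lpl was lower in wild type, at -0.17, and where it differed least under the Trpv4-null label. Whether that sign turns with the scaling was not tested. By totals Cd36 had its lowest log2 ratios in High_Lpl_Fabp4+ as well, at -0.45 under the Trpv4-null label and -0.98 in wild type.

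The library-wide ratios therefore depended on that cluster's cells. Without High_Lpl_Fabp4+ the LPS log2 ratio of Lpl was 2.40 under the Trpv4-null label and 1.02 in wild type, that of Fabp4 was 1.74 under that label and 0.67 in wild type, and that of Cd36 was 0.75 under that label and -0.13 in wild type. At least 2-fold were then 3 members higher and 1 lower under the Trpv4-null label, where 466 of all 6378 genes compared were higher and 1395 lower. In wild type 1 member was higher and 3 were lower, where 447 of 6358 genes were higher and 1181 lower. Atp6v0d2 was read as part of a list of alveolar macrophage markers. In High_Lpl_Fabp4+ it was at 6.77 CPM after LPS and 168 CPM untreated under the Trpv4-null label. Its wild-type levels there were 4.22 CPM after LPS and 165 CPM untreated. Marco, a scavenger receptor of alveolar macrophages, went the other way in the cluster, at 96.7 CPM after LPS and 0 UMIs untreated under the Trpv4-null label. In wild type it was at 177 CPM after LPS and 0.992 CPM untreated in the cluster. The whole libraries went the same way for Marco, at 95.6 CPM after LPS and 0.0851 CPM untreated under the Trpv4-null label. In wild type they were at 211 CPM after LPS and 2.24 CPM untreated. Of 10 alveolar macrophage markers 7 were in the table and 2 reached 20 CPM, Marco and Atp6v0d2, with the list summing to 108 and 180 CPM (Trpv4-null label) and 187 and 178 CPM (wild type) in the cluster and to 103 and 74.1 CPM and 220 and 82.2 CPM in the libraries (after LPS and untreated). Siglecf and Car4 were at most 0.62 CPM in the cluster. The part of these genes in the lipid gene results was not tested.

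The difference between the labels' LPS ratios was above 0 in all 8 clusters for Lpl, Fabp4, Plin2, Pparg and Cd36. For Lpl it ran from 0.78 (Proliferating) to 1.94 (Cd74+) and was 1 or more in 7 clusters. For Cd36 it ran from 0.37 (Proliferating) to 1.38 (High_Apoe), and for Plin2 from 0.29 (Proliferating) to 0.81 (High_Lpl_Fabp4+). Fabp4 ran from 0.09 (Tmem176+, where an untreated library had 19 to 21 Fabp4 UMIs) to 2.67 (Ifit1bl1+_Cmpk2+, with 26 UMIs untreated under the Trpv4-null label). Pparg ran from 0.34 (Cd74+) to 1.43 (Il1b+_Cxcl2+), on 12 to 77 UMIs per cluster and library after LPS. In Cd74+ the intervals of its LPS ratios overlapped (0.037 to 0.139 under the Trpv4-null label, 0.033 to 0.110 in wild type). Fabp5 was above 0 in 6 clusters and Pnpla2 in 3. Clusters of 1 library share mice and handling and are not replicates.

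**Figure D5:**
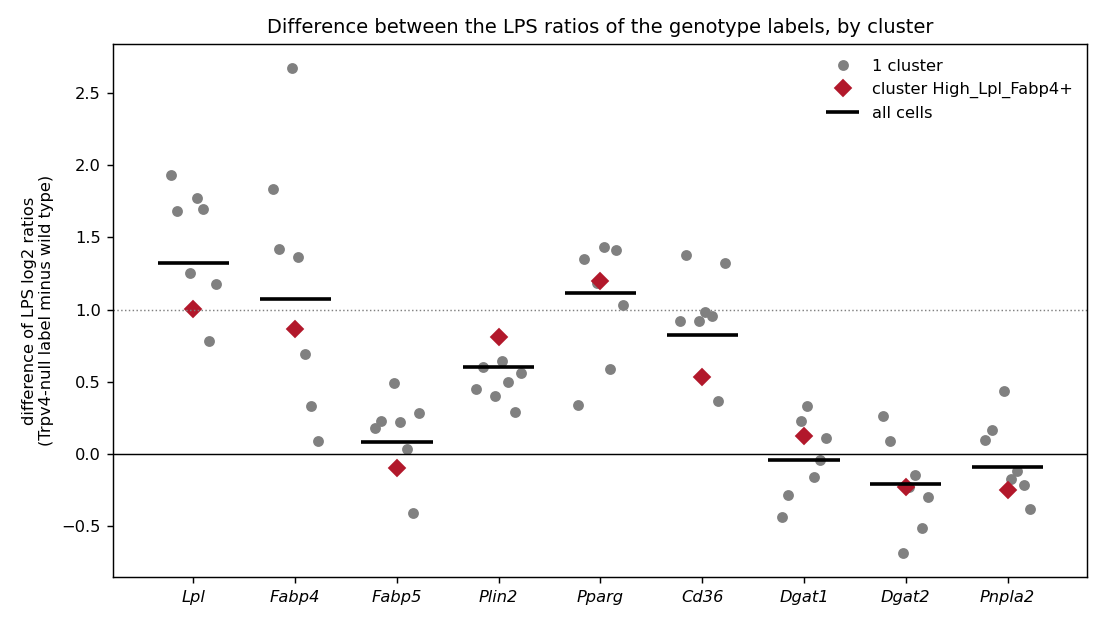
Difference between the LPS log2 ratios (Trpv4-null label minus wild type) for the 9 genes, with a grey point per cluster, a red diamond for High_Lpl_Fabp4+, a bar for all cells, and a dotted line at 1. Lpl, Fabp4, Plin2, Pparg and Cd36 have all 8 clusters above 0, while the clusters of Fabp5, Dgat1, Dgat2 and Pnpla2 lie on both sides.

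The members' patterns were also compared over the 32 sums of a cluster and a library, which share libraries and so are not independent. Over these 32 profiles Fabp4 and Fabp5 had a Pearson correlation of 0.88, Fabp4 and Cd36 of 0.75, and Lpl and Fabp4 of 0.63. Plin2 and Pparg were at 0.87, Pparg and Pnpla2 at 0.79, and Lpl and Pnpla2 at -0.62. Other pairs lay between, such as Plin2 and Cd36 at 0.32, Fabp4 and Plin2 at 0.11, Pparg and Cd36 at 0.07, Lpl and Plin2 at -0.05 and Fabp5 and Pparg at -0.52. Among 6329 genes searched, the patterns most like Lpl were those of the myosin Myo1e (0.89), the proteasome subunit Psmd8 (0.88) and the protocadherin Pcdh7 (0.88). Pparg was most like the lysosomal lipase Lipa (0.96), Tpd52 (0.96) and the phosphatase Ptpra (0.96), and Cd36 most like the metalloprotease Adam8 (0.89), Gnas (0.85) and the creatine transporter Slc6a8 (0.85). For Plin2 these were Lpxn (0.94), Asph (0.93) and Osbpl8 (0.93), and for Pnpla2 Lmo2 (0.96), Pdzk1ip1 (0.96) and Erbin (0.96). Fabp4, after Fabp5, was most like Gnas (0.82) and Adam8 (0.79), and Fabp5, after Fabp4, like the folate receptor Folr2 (0.84) and Gng11 (0.84).

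Within each library, Fabp5 was found more often in thinned cells with Fabp4 than in those without. Of cells with a Fabp4 UMI, 98.7% also had Fabp5 after LPS and 94.7% untreated under the Trpv4-null label, against 79.5% and 66.0% of cells without Fabp4. In wild type it was 97.3% after LPS and 93.6% untreated, against 76.9% and 61.7%. Cd36 was found in 51.7% of cells with Lpl and 41.6% of those without after LPS under the Trpv4-null label, and in 47.9% and 25.7% untreated. In wild type these were 43.6% and 34.2% after LPS, and 52.5% and 32.1% untreated.

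Other genes of lipid handling were read from 6 lists by step. Of all genes compared, 7.3% were at least 2-fold higher and 21.3% lower after LPS under the Trpv4-null label, and 6.9% higher and 17.7% lower in wild type. Among lipoprotein receptors and handling genes, 8 of 17 could be compared, and 1 was at least 2-fold higher and 3 lower under each label (median log2 -0.63 under the Trpv4-null label and -0.62 in wild type, where the median over all genes compared was -0.42 under that label and -0.39 in wild type by the same scaling). The scavenger receptor Msr1 stood at 650.0 CPM after LPS and 50.7 CPM untreated under the Trpv4-null label, and at 586 CPM after LPS and 59.1 CPM untreated in wild type. Apoe, the lipid-carrying apolipoprotein, stood at 784 and 5095 CPM under the Trpv4-null label and at 570 and 4338 CPM in wild type (after LPS and untreated). Lipa, the lysosomal acid lipase, stood at 224 CPM after LPS and 552 CPM untreated under the Trpv4-null label, and at 178 CPM after LPS and 753 CPM untreated in wild type.

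Of 13 fatty acid transport and activation genes, 6 were compared under each label, but not the same 6. At least 2-fold higher were 3 under the Trpv4-null label (median 0.94) and 2 in wild type (0.26), and 0 were lower. Of all genes, 7.3% and 6.9% were higher. Acsl3 was compared in wild type only, because neither library labelled Trpv4-null reached 20 CPM. The medians and counts of the labels therefore come from different sets. The acyl-CoA synthetase Acsl1 stood at 470 CPM after LPS and 27.4 CPM untreated under the Trpv4-null label, and at 487 CPM after LPS and 33.7 CPM untreated in wild type. Acsl5, of the same family, was 2.16-fold its untreated level under the Trpv4-null label and 2.33-fold in wild type. Acsl3 (0.554 under the Trpv4-null label and 0.488 in wild type) and the transporter gene Slc27a1 (0.785 under the Trpv4-null label and 0.840 in wild type) were lower by library totals, though Slc27a1 turned above 0 with size factors (log2 0.26 under the Trpv4-null label and 0.28 in wild type).

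Of 8 triglyceride and cholesteryl ester synthesis genes compared of 16, 0 were at least 2-fold higher and 2 lower under each label (medians -0.22 under the Trpv4-null label and -0.29 in wild type), a share near the 21.3% and 17.7% of all genes that were lower. Both were lipins, the phosphatidate phosphatases upstream of the DGAT step. Lpin1 stood at 3.17 CPM after LPS and 76.2 CPM untreated under the Trpv4-null label, and at 4.199 CPM after LPS and 72.2 CPM untreated in wild type. Lpin2 was 0.418-fold its untreated level under the Trpv4-null label and 0.410-fold in wild type, while the acyltransferase genes Agpat3 (1.42 under the Trpv4-null label and 1.63 in wild type) and Gpat4 (1.33 under the Trpv4-null label and 1.31 in wild type) were higher. Of 6 droplet coat and lipolysis genes compared of 18, 2 were at least 2-fold lower under the Trpv4-null label and 1 in wild type (medians -0.37 under the Trpv4-null label and -0.31 in wild type), beside 21.3% and 17.7% of all genes. They were Nceh1, a cholesteryl ester hydrolase (0.489 under the Trpv4-null label and 0.423 in wild type), and Plin3, a perilipin (0.475 under the Trpv4-null label and 0.528 in wild type). Lipe, hormone-sensitive lipase, had LPS ratios of 1.18 under the Trpv4-null label and 1.29 in wild type, and Abhd5, the activator of ATGL, of 1.15 under the Trpv4-null label and 0.982 in wild type. With size factors their log2 ratios were 0.81 and 0.78 under the Trpv4-null label and 0.86 and 0.48 in wild type.

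Of 14 PPAR partners and regulators compared of 17, 2 were at least 2-fold higher and 5 lower under the Trpv4-null label, and 2 higher and 6 lower in wild type (medians -0.72 under the Trpv4-null label and -0.79 in wild type), where 7.3% of all genes were higher and 21.3% lower under that label, and 6.9% higher and 17.7% lower in wild type. Nr1h3, the oxysterol receptor LXRα, stood at 105 CPM after LPS and 7.98 CPM untreated under the Trpv4-null label, and at 103 CPM after LPS and 12.7 CPM untreated in wild type. Cebpb was 2.36-fold its untreated level under the Trpv4-null label and 2.17-fold in wild type. Cebpa, a partner of Pparg in adipocyte differentiation, stood at 6.31 and 84.3 CPM under the Trpv4-null label and at 7.41 and 97.1 CPM in wild type (after LPS and untreated). Klf4 had 21.7 CPM after LPS and 35.3 CPM untreated under the Trpv4-null label, and 14.1 CPM after LPS and 64.0 CPM untreated in wild type.

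Of 15 beta-oxidation genes compared of 18, 0 were at least 2-fold higher, and 6 under the Trpv4-null label and 4 in wild type were lower (medians -0.63 under the Trpv4-null label and -0.67 in wild type), where 21.3% and 17.7% of all genes were. The medium-chain dehydrogenase Acadm (0.343 under the Trpv4-null label and 0.435 in wild type) and the thiolase Acaa2 (0.422 under the Trpv4-null label and 0.437 in wild type) were the lowest by the wild-type ratio, and Echs1 (0.944 under the Trpv4-null label and 1.06 in wild type) and Etfb (0.884 under the Trpv4-null label and 0.869 in wild type) the highest. With size factors Echs1 and Etfb had log2 ratios of 0.52 and 0.43 under the Trpv4-null label and 0.61 and 0.33 in wild type. Between the genotype labels, 0 members of these 6 lists were at least 2-fold higher or lower in either treatment.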

How the data were processed

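The authors deposited whole-number counts of UMIs for 14432 genes in 27366 cells and a cell annotation with, per the file headers, the library, the cluster name, the UMI total and the mitochondrial fraction of each cell. The submitters' processing notes name mm10 as the build, and Seurat 4, R 4.2 and Cell Ranger 3.1.0 as tools. The sources used here do not state filters, doublet handling or strand use. Deposited cells had 1003 to 39987 UMIs and at most 9.998% mitochondrial UMIs.

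For each gene, UMIs were added up per library, or per library and authors' cluster, and scaled by the total to CPM (per 1000000 UMIs), with exact Poisson intervals, exact conditional intervals of ratios and Clopper-Pearson intervals of shares. Log2 ratios were taken of CPM plus 1 CPM, so that ratios of low genes are understated. Genes were compared at 20 CPM and 30 UMIs in the higher library. With 1 library per group no p-value was computed. Median-of-ratios size factors and TMM factors (edgeR 4.0.16) were alternatives, with others on the pseudocount, filter and cells. The steps were tested on simulated data. Positions came from GENCODE on GRCm38 and promoters from RefSeq, which gave windows for 4 of the 9 members.

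The members, gene lists and markers were chosen with earlier results of these data known. All members were named, and from each list up to 2 genes each with the highest and lowest wild-type LPS ratio. The 3 most alike genes were named for each member at 20 CPM. Python 3.11.15 with numpy 2.4.6, scipy 1.17.1 and pandas 2.3.3 was used.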

Additional observations from a re-analysis of the deposited data

Results flagged for a closer look

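Lpl, Fabp4, Plin2 and Cd36 differed between the genotype labels in opposite directions in the 2 treatments: after LPS each was higher, and untreated each was lower, in the library labelled Trpv4-null. The log2 ratio of the labels after LPS exceeded the untreated one by 1.324 for Lpl, 1.071 for Fabp4, 0.602 for Plin2 and 0.821 for Cd36. Cd36 also had LPS log2 ratios of opposite sign, 0.36 under the Trpv4-null label and -0.46 in wild type, which is the same difference of 0.821 read along the treatment. With 1 library per group, none of these differences was tested. The Trpv4 counts did not follow the genotype label in either treatment.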

How the results depend on the processing

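The counts of members and of all genes past 2-fold and the members' library-wide log2 ratios, with the difference between the labels' LPS ratios, were recomputed under 11 alternatives. Values by cluster, shares of cells and correlations were not, nor were the gene lists, apart from the ratios with size factors given for some of their genes. Of 99 recomputed counts, 91 stayed within 1.5 times the reported one. The other 8 were counts of all compared genes past 2-fold. With no filter on low values they were 3272 (LPS, Trpv4-null label), 2681 (LPS, wild type), 30 (label, after LPS) and 49 (label, untreated). With a minimum of 50 CPM they were 1117, 1019, 5 and 9. The number of genes compared changed as well, for LPS in wild type from 6332 to 14431 with no filter and to 3559 at 50 CPM. Of 495 recomputed log2 values of members, 356 moved by at most 50% of the width of their counting interval. For the difference, the widths of the 2 LPS intervals were added. A further 137 moved more and 2 reversed. Both reversals were Cd36 for LPS in wild type, at 0.072 with median-of-ratios size factors and 0.062 with TMM factors, where the scaling moves the median gene. Sign changes of genes outside the comparison, such as Dgat1 for LPS with size factors, were not counted as reversals. With TMM factors 67.9% (Trpv4-null label) and 68.4% (wild type) of genes past 2-fold after LPS were higher. Of genes past 2-fold between the untreated libraries, 50.0% were higher under the Trpv4-null label by totals and 46.7% with TMM factors. The 3 members at 1 or more in the difference of LPS ratios became 2 with a pseudocount of 5 CPM, a minimum of 50 CPM or thinned cells. No paired analysis was possible because each group is 1 library and no replicate number links them. Depth limits Dgat1, Dgat2 and, after LPS, Pparg.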
